A study of Danio rerio with 3 samples.

Results

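DNA methyltransferase genes were followed in zebrafish embryos that had been exposed to cortisol or to its vehicle as freshly laid eggs. The members are the probes whose gene name on the array is dnmt1, dnmt3aa, dnmt3ab, dnmt3ba, dnmt3bb.1 or dnmt3bb.2, or an older synonym from dnmt3 to dnmt8. This gave 17 of 43603 probes and 7 of 27217 genes, since the older name dnmt5 belongs to a further gene, dnmt3bb.3, with 3 probes. The other 6 genes had 14 probes, 7 of them for dnmt1, 2 each for dnmt3ab and dnmt3ba, and 1 each for dnmt3aa, dnmt3bb.1 and dnmt3bb.2. The genes were chosen by name with the ratios of these arrays known, the ratio of dnmt3bb.1 at 5 hours post fertilisation (hpf) among them, so their ratios are given as a description.

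Cortisol is the main glucocorticoid of fish and acts largely through the glucocorticoid receptor. The treated eggs, of wild-type fish from a local pet shop, lay in 13.8 µM cortisol (5 mg/L) from 0 to 2 hpf, and the vehicle eggs in 2 ml ethanol per 1 L of fish water over the same time. Both were raised at 28.5 °C, and whole embryos were fixed at 5, 12 and 24 hpf. On every 2-colour array the cortisol RNA was in red (Cy5) and the vehicle RNA in green (Cy3), with no dye swap, so dye and treatment cannot be told apart. The labels state 4 experiments at 5 hpf, 3 at 12 hpf and 1 at 24 hpf, but only 1 set of values per stage was analysed here, which leaves no spread between embryo batches. For this reason no test or p-value is given, and at least 2-fold is a statement of size alone.

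DNA methyltransferases add a methyl group to cytosine, mostly where a guanine follows, and so mark DNA in a way that is passed on through cell division and commonly accompanies gene silencing. Dnmt1 copies existing methylation onto the new strand after replication, with uhrf1 as its guide to freshly copied DNA. The Dnmt3 enzymes set new marks. Zebrafish carry several dnmt3 genes: dnmt3aa and dnmt3ab are the counterparts of mammalian Dnmt3a, and dnmt3ba and the dnmt3bb genes are related to mammalian Dnmt3b. The zebrafish egg holds a maternal supply of dnmt1, and in later zebrafish embryos dnmt3bb.1 is known from blood stem and progenitor cells.

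The red channel was bright at 5 hpf and dim afterwards. At 5, 12 and 24 hpf the 95th percentile of the background-subtracted signal was 7318, 330 and 290.0 units in cortisol embryos, against 3710, 4350 and 1978 in vehicle embryos. The median methyltransferase probe lay 571.6, 66.7 and 53.0 units above background in cortisol embryos at 5, 12 and 24 hpf, against 350.0, 721.0 and 313.0 in vehicle embryos. All 17 probes exceeded the limit set by the negative control spots in both channels at 5 and 12 hpf, and 15 did so at 24 hpf. There a probe of dnmt1 and a probe of dnmt3bb.3 stayed below it in red. Other probes passed narrowly. At 12 hpf the dnmt1 probe A_15_P344970 had a red signal of 135 against a limit of 134.7. At 24 hpf A_15_P319211, also of dnmt1, had 139 against 136.9. Different probes of a gene differed in their log2 ratio by a pooled SD of 0.21, 0.33 and 0.33 at 5, 12 and 24 hpf, over all genes with several probes. The values at 5 and 12 hpf were read as means over 4 and 3 arrays, and those at 24 hpf as 1 array. The slides of the averaged arrays are not given here, so slide and stage cannot be told apart. Of the early transcripts listed to check the stage, 11 of 11 measured had a lower vehicle level at 24 than at 5 hpf, and 12 of 12 late transcripts had a higher one.

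**Figure D1:**
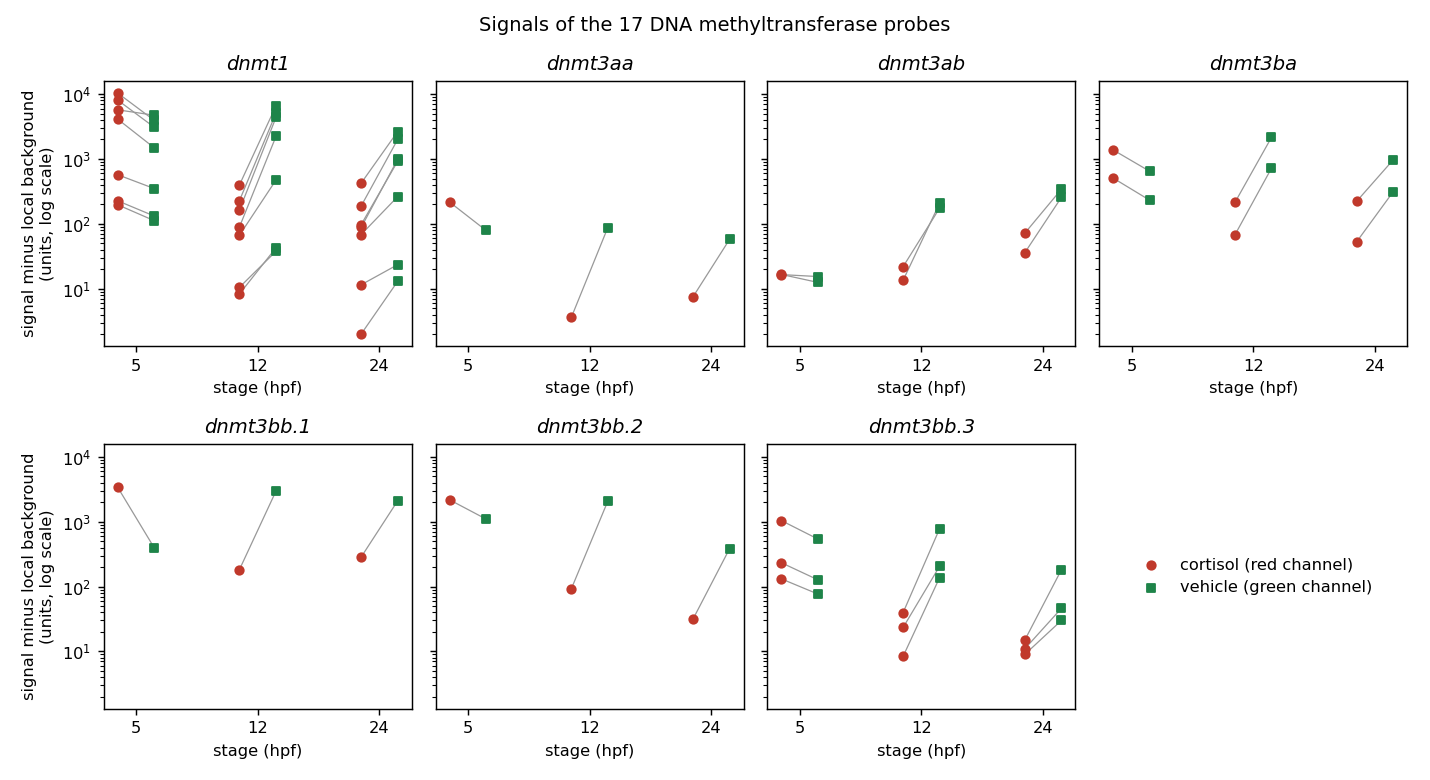
Signal minus local background (scanner units, log scale) of each methyltransferase probe at 5, 12 and 24 hpf, with cortisol embryos (red circles) left of vehicle embryos (green squares) and a line joining both channels of a probe. For dnmt3bb.1 the red circle lies at 3386.1 units and the green square at 395.0 at 5 hpf, and at 12 and 24 hpf the green squares of every probe lie above the red circles.

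The member that stood out at 5 hpf was dnmt3bb.1. Its single probe, A_15_P174051, gave 3386.1 units above background in cortisol embryos and 395.0 in vehicle embryos. After normalisation, which removes the overall brightness difference between the dyes, this was a log2 ratio of 2.06, or 4.16-fold higher in cortisol embryos. It was the 12th highest of 19309 genes measured at that stage, and both channels were far above the negative controls. In the authors' deposited table the log2 ratio was 1.78, which placed it 123rd of 19316 genes, and the ratio of their processed signals was 2.19.

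The difference was not present later. At 12 hpf dnmt3bb.1 gave 182.7 units in cortisol embryos and 2960.8 in vehicle embryos, a log2 ratio of -0.39, and in the authors' deposited table -0.28. At 24 hpf it gave 285.0 units in cortisol embryos and 2099.5 in vehicle embryos, a log2 ratio of -0.20, and in the authors' deposited table -0.04. With median centring in place of loess these ratios were -1.24 at 12 hpf and -1.04 at 24 hpf, below 0 as well. Whether the ratio of dnmt3bb.1 differs between stages beyond the spread of embryo batches was not tested.

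In the gene order of assembly GRCz12tu, dnmt3bb.3, dnmt3bb.2 and dnmt3bb.1 follow each other, and on its other side dnmt3bb.1 is followed by LOC141380470, which has no probe here, and then by commd7. The probe of dnmt3bb.2 gave 2175.0 units in cortisol embryos and 1096.9 in vehicle embryos at 5 hpf, a log2 ratio of 0.05. At 12 hpf it gave 91.9 and 2073.4 units in cortisol and vehicle embryos, a log2 ratio of -0.73, and at 24 hpf 31.5 and 382.5 units, a log2 ratio of -0.52. These made it the 201st lowest of 12767 genes at 12 hpf and the 724th lowest of 12321 at 24 hpf, short of 2-fold at both. The authors' deposited table had dnmt3bb.2 at 0.02, -0.13 and -0.48 at 5, 12 and 24 hpf, so the lower value at 12 hpf was small there, and it was -1.42 with median centring.

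The 3 probes of dnmt3bb.3 had log2 ratios from -0.02 to 0.04 at 5 hpf and from -0.42 to 0.21 at 12 hpf. At 24 hpf 2 of them were measured in both channels, at 0.09 and -0.35, and the third, A_15_P722641, had 9.0 units in cortisol embryos against 30.0 in vehicle embryos, too dim in red for a fold. Averaged over probes, dnmt3bb.3 stood at 0.01, -0.10 and -0.13, within the spread between probes of a gene at each stage. Beyond the cluster, commd7 stood at 0.13 at 5 hpf, -0.63 at 12 hpf and -0.42 at 24 hpf, and on the other side fbxo44.9 had -0.04, -0.15 and -0.34 and cdc42l2, measured in both channels at 5 hpf, 0.06. The high value of dnmt3bb.1 at 5 hpf was thus not shared by any of these nearby genes that was measured.

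The related gene dnmt3ba had small ratios above 0. Over the 3 stages its probe A_15_P364830 gave 1377.1, 214.3 and 223.0 units in cortisol embryos, against 645.2, 2152.6 and 970.5 in vehicle embryos, with log2 ratios of 0.17, 0.21 and 0.44. The other probe, A_15_P542422, had log2 ratios of 0.23, 0.13 and 0.05. The 2 probes of dnmt3ba thus had the same sign at all 3 stages. Their mean log2 ratio was 0.20, 0.17 and 0.25, beside 0.20, 0.16 and 0.30 in the authors' deposited table. Each mean in the scanner signals was within the spread between probes of a gene. With normexp on every spot the mean at 12 hpf was -0.13. With median centring dnmt3ba stood at -0.42 at 12 hpf and -0.18 at 24 hpf, so its sign at these stages depended on the normalisation.

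The Dnmt3a counterparts were dim. Signals of dnmt3aa were 216.8 units in cortisol embryos and 79.0 in vehicle embryos at 5 hpf, a log2 ratio of 0.43. In cortisol embryos they were 3.6 units at 12 hpf and 7.5 at 24 hpf, against 87.6 and 57.5 in vehicle embryos, with log2 ratios of -0.14 and -0.09. At these stages the red signal of dnmt3aa barely cleared its background, and its ratio at 12 hpf ran from -1.36 to 1.18 over the other ways of processing the signals. The authors' deposited table gave dnmt3aa 0.60 at 5 hpf, -0.52 at 12 hpf and -0.53 at 24 hpf.

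For dnmt3ab the probe A_15_P139946 gave 16.6, 21.9 and 36.0 units in cortisol embryos at 5, 12 and 24 hpf, against 12.5, 175.2 and 255.5 in vehicle embryos. Its log2 ratios were -0.03, 0.25 and -0.09, and those of A_15_P620956 were -0.11, -0.09 and 0.26. Averaged, dnmt3ab stood at -0.07, 0.08 and 0.08. The probes of dnmt3ab had opposite signs at 12 and 24 hpf, and each mean in the scanner signals was within the spread between probes of a gene. The authors' deposited table had dnmt3ab at -0.44, -0.05 and 0.08 at the 3 stages, and median centring gave -0.34 at 5 hpf and 0.69 at 12 hpf, values beyond that spread at 5 hpf and, with median centring, at 12 hpf.

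The maintenance gene dnmt1 had 7 probes, and they disagreed. At 5 hpf 3 bright probes, A_15_P461830, A_15_P632541 and A_15_P666021, had log2 ratios of 0.39, 0.51 and 0.40. The first of these gave 10380.2 units in cortisol embryos and 3943.2 in vehicle embryos. Another bright probe, A_15_P663091, gave 5726.0 units in cortisol embryos and 4729.2 in vehicle embryos, a log2 ratio of -0.70. The remaining 3 probes, all dimmer, lay at -0.15, -0.04 and -0.01, so that the mean of 0.06 for dnmt1 at 5 hpf covers probes on both sides of 0. The authors' deposited table had -1.63 for A_15_P663091, past 2-fold lower, where the ratio of their processed signals was -0.68.

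At 12 hpf the 4 bright probes of dnmt1 had log2 ratios from -1.01 to -0.40 and the 3 dim probes from 0.18 to 0.51, for a mean of -0.30. The lowest was again A_15_P663091, with 163.5 units in cortisol embryos and 4370.5 in vehicle embryos, and in the scanner signals it was the only methyltransferase probe at least 2-fold lower at any stage. At 24 hpf the bright probes lay between -0.66 and 0.03, and 2 dim probes measured in both channels lay at 0.44 and 0.22. The last probe, A_15_P344970, had 2.0 units in cortisol embryos and 13.0 in vehicle embryos, too dim in red for a fold. In the scanner signals, green brightness thus went with the sign of the dnmt1 ratio at 12 hpf, where the red channel was dim, and its part in these ratios was not tested. In the authors' deposited table this split did not hold, since the dim probes A_15_P319211 and A_15_P344970 had -0.63 and -0.66 at 12 hpf, the lowest of the 7. The dnmt1 ratios averaged -0.18 at 24 hpf. In the authors' deposited table their mean was 0.39, with the dim probe A_15_P319211 at 1.56 where the scanner signals gave 0.22.

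**Figure D2:**
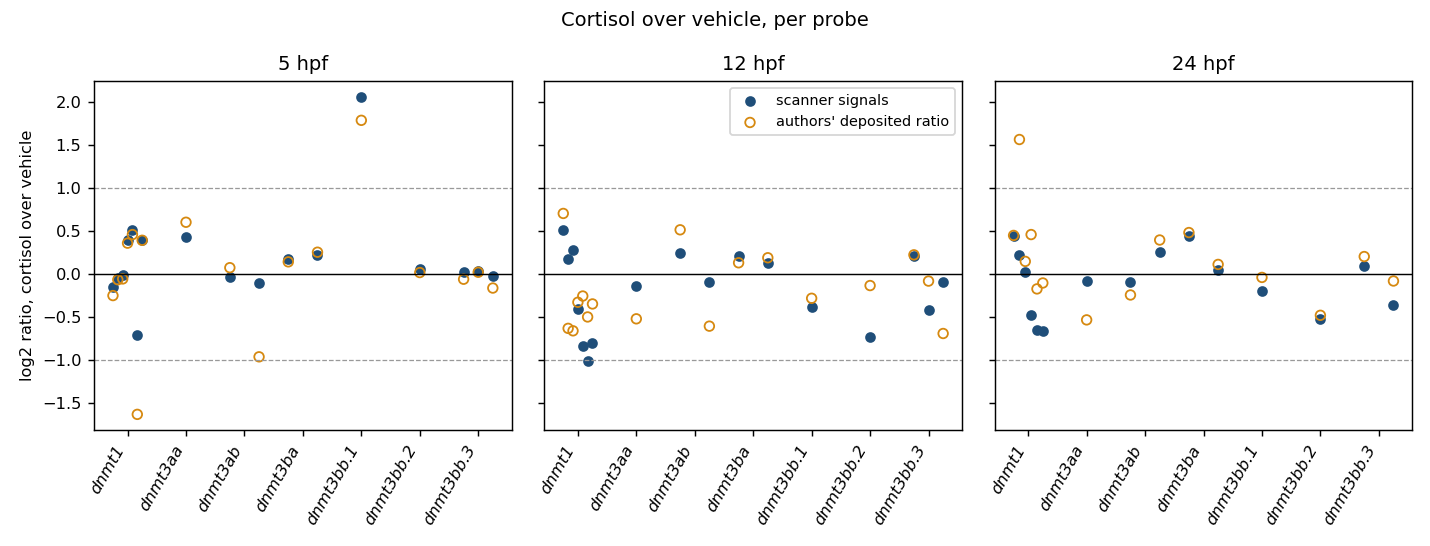
Log2 ratio of cortisol over vehicle (y axis) of each methyltransferase probe, by gene (x axis) and stage (panels), from the scanner signals (filled circles) and in the authors' deposited table (open circles), with dashed lines at 2-fold. The dnmt3bb.1 probe at 5 hpf lies at 2.06 and 1.78, and the dnmt1 probes spread from -0.70 to 0.51 in the scanner signals at that stage.

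Counts of the methyltransferase genes were read against those of all genes. At 5 hpf 1 of 7 genes was at least 2-fold higher, a call made in 0.575% of all measured genes, and 0 were at least 2-fold lower, against 0.14%. The median of the 7 was 0.06 and that of all genes 0.01, with 6 of the 7 above 0. At 12 hpf 0 of 7 were at least 2-fold higher or lower, against 0.58% and 0.321% of all genes, and 5 of 7 were below 0 with a median of -0.14, against -0.03 in all genes. At 24 hpf 0 of 7 were past 2-fold in either direction, against 0.325% higher and 0.787% lower, and 5 of 7 were again below 0 with a median of -0.13, against -0.02. The red channel was much dimmer at 12 and 24 hpf than at 5 hpf, so these counts are not compared between stages. Since dnmt3bb.1 was known for its ratio at 5 hpf when the genes were chosen, nothing is read from the single call. Shares of all genes above or below 0 are not given here, so nothing is read from the counts by sign either.

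In the authors' deposited table the same gene was the only one past 2-fold. There 1 of 7 was at least 2-fold higher and 0 lower at 5 hpf, against 3.05% and 1.97% of all genes, and 0 of 7 in either direction at 12 hpf, against 2.84% higher and 3.06% lower. At 24 hpf it was 0 of 7 as well, against 3.64% and 2.6%. The sign of the ratio matched that of the deposited table in 15 of 17 probes at 5 hpf, 15 of 17 at 12 hpf and 14 of 15 at 24 hpf. Of the 7 genes, 4 were above 0 at 24 hpf there, where the scanner signals had 2. Some means differed in sign: dnmt1 had -0.11 and dnmt3bb.3 -0.07 at 5 hpf in the authors' deposited table, dnmt3ab -0.05 at 12 hpf, and dnmt3bb.3 0.06 at 24 hpf. The mean of dnmt1 at 24 hpf, 0.39 there and -0.18 in the scanner signals, differed by more than the spread between probes.

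**Figure D3:**
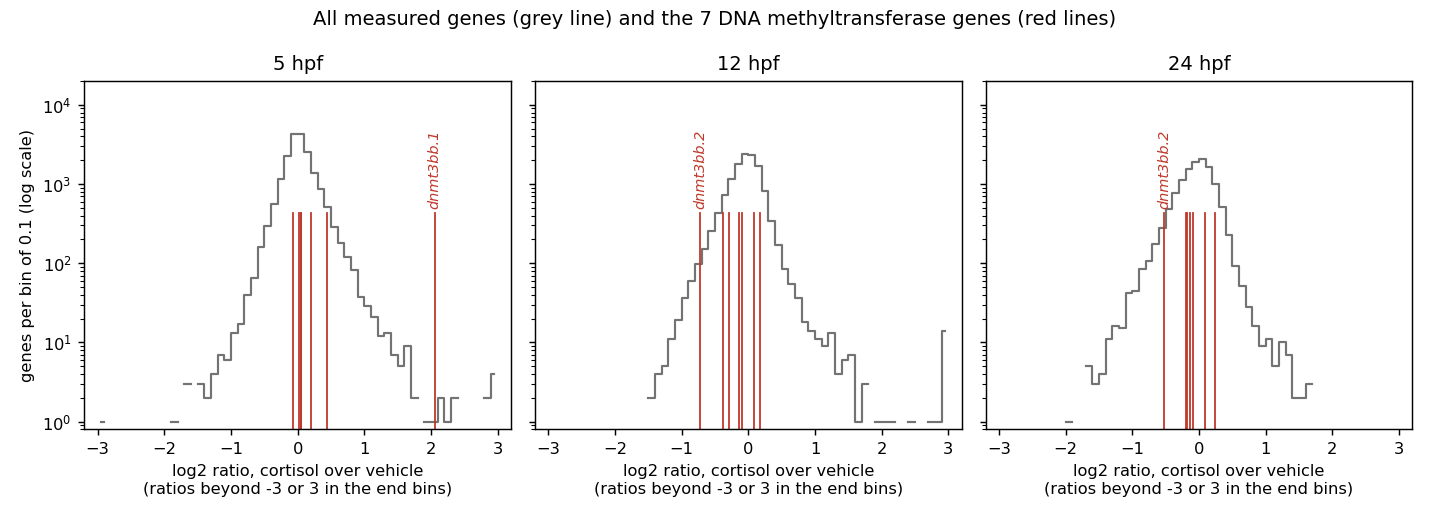
Number of genes (y axis, log scale) by log2 ratio of cortisol over vehicle (x axis, bins of 0.1, ratios beyond the axis in the end bins) at each stage, with the 7 methyltransferase genes as red lines. At 5 hpf dnmt3bb.1 stands at 2.06 in the sparse right tail and the others between -0.07 and 0.43, and dnmt3bb.2 stands lowest of the 7 at 12 and 24 hpf.

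Levels over development were read in vehicle embryos, as the log2 level relative to the 75th percentile of each array. On this scale the median of all 16465 genes shifted by -0.14 between 5 and 12 hpf, 0.49 between 12 and 24 hpf and 0.48 between 5 and 24 hpf, so changes are also given relative to that shift. In whole embryos, more cells of a type and more RNA per cell cannot be told apart.

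The difference of dnmt3bb.1 between 5 and 12 hpf was the largest of the 7 under 3 of the 5 scalings, and under background subtraction and in the processed signals that of dnmt3ab was larger, at 3.54 and 4.36 on the log2 scale. The dnmt3bb.1 vehicle level was -0.93 at 5 hpf, 1.59 at 12 hpf and 2.16 at 24 hpf. The 12 hpf level was 2.52 above the 5 hpf level on the log2 scale, or 6.32-fold relative to the median gene, and over the other scalings this difference stayed between 2.45 and 2.68. From 12 to 24 hpf dnmt3bb.1 differed by 0.57, which was 0.08 above the median gene on this scale and between 0.56 and 0.72 above it under quantile normalization, background subtraction and in the processed signals. The vehicle level of dnmt3bb.1 was thus lower at 5 hpf than at both later stages. Its vehicle signal at 5 hpf is also the denominator of the ratio for which the gene was known. The rise and that ratio are therefore not independent, and nothing is read from their going together.

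In cortisol embryos the dnmt3bb.1 level, scaled in the red channel, was 0.02 at 5 hpf, 0.17 at 12 hpf and 0.86 at 24 hpf. Its difference between 12 and 5 hpf was 0.15, with a range from -0.89 to 0.22 over the scalings, where that in vehicle embryos was 2.52. Red levels across stages rest on scaling a channel that was much dimmer after 5 hpf, and all genes shifted there by a median of 1.02 between 5 and 12 hpf.

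A second pattern was that of dnmt3ab, whose vehicle level was -3.69, -2.03 and -0.45 at 5, 12 and 24 hpf. Both probes showed it: 12 hpf lay above 5 hpf by 1.60 and 1.73, and 24 hpf above 12 hpf by 1.49 and 1.65. Relative to the median gene dnmt3ab was 6.79-fold higher at 24 than at 5 hpf, from a signal near background at 5 hpf. That fold was 38.7 with background subtraction and 64.7 in the processed signals, so its size is poorly fixed.

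Vehicle levels of dnmt3ba were -0.94, 0.39 and 0.35. Its probes lay 1.43 and 1.22 higher at 12 than at 5 hpf and -0.05 and -0.02 apart between 12 and 24 hpf, a step followed by little change in level. Relative to the median gene, however, dnmt3ba was 1.44-fold lower at 24 than at 12 hpf. That relative difference was -0.12 with background subtraction, -0.03 in the processed signals and 0.02 under quantile normalization, on the log2 scale. By contrast dnmt3bb.2 was highest at 12 hpf, with levels of 0.43, 1.09 and -0.14, and was 3.28-fold lower at 24 than at 12 hpf relative to the median gene. That fold was smaller, 2.26, under quantile normalization and in the processed signals, and 2.60 with background subtraction. A like shape at smaller size was seen in dnmt3bb.3, at -1.83, -1.53 and -1.92, with 3 of 3 probes highest at 12 hpf.

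Levels of dnmt3aa were -2.70, -2.82 and -2.09. The mean vehicle level of dnmt1 was 0.26, 0.10 and 0.10, and relative to the median gene it was 1.55-fold lower at 24 than at 5 hpf. Over the other scalings that fold ran from 1.19 to 1.66. The probes of dnmt1 disagreed. Between 5 and 12 hpf, A_15_P319211 and A_15_P344970 differed by -1.16 and -1.07 on the log2 scale and A_15_P461830 and A_15_P666021 by 0.50 and 0.48, and A_15_P663091 differed by -1.04 between 12 and 24 hpf. Over all genes the pooled SD between probes was 0.75, 0.45 and 0.83 for the differences from 5 to 12, 12 to 24 and 5 to 24 hpf. The differences of dnmt3bb.1, dnmt3ab and dnmt3ba between 5 and 12 hpf were larger than this SD, and those of dnmt1, dnmt3aa, dnmt3bb.2 and dnmt3bb.3 were not.

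Counted by size, 3 of 7 genes (dnmt3ab, dnmt3ba and dnmt3bb.1) were at least 2-fold higher at 12 than at 5 hpf in vehicle embryos and 0 were lower, where 15.6% of all genes were higher and 18.2% lower. Between 12 and 24 hpf 1 was higher (dnmt3ab) and 1 lower (dnmt3bb.2), against 18.8% and 2.2% of all genes. Between 5 and 24 hpf the same 3 as in the first step were higher and 0 lower, against 26.9% and 14.1%. In cortisol embryos, 4 of 7 (dnmt3aa, dnmt3ab, dnmt3ba and dnmt3bb.3) were at least 2-fold higher at 12 than at 5 hpf and 0 lower, where 50.5% of genes were higher and 8.75% lower. Between 12 and 24 hpf it was 0 of 7 in either direction, against 3.09% and 1.29%, and between 5 and 24 hpf 4 higher and 0 lower, against 52.8% and 9.77%. With about every other gene called in red, the cortisol counts are close to the background, and under other scalings dnmt3aa changed sign in both spans and dnmt3bb.3 between 5 and 24 hpf.

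**Figure D4:**
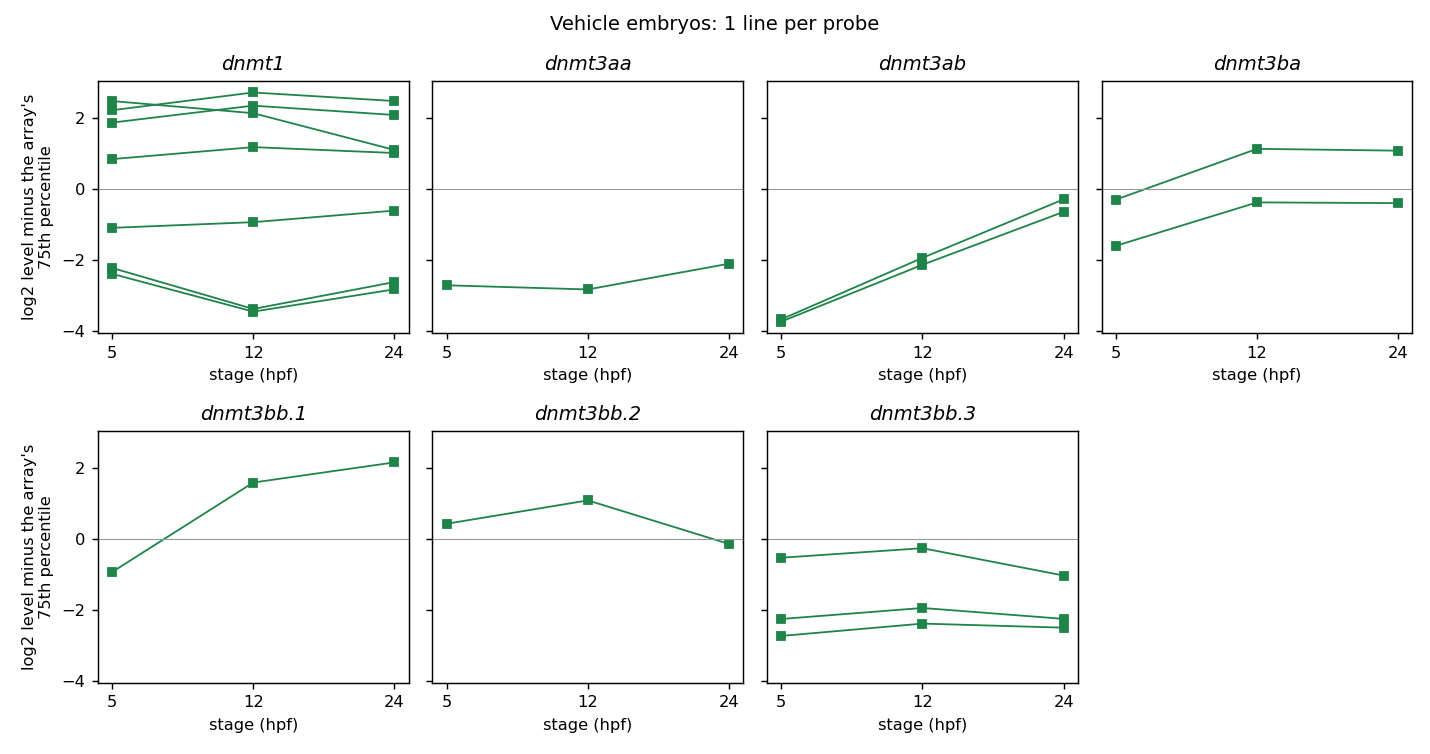
Log2 level minus the 75th percentile of the array (y axis) of each methyltransferase probe in vehicle embryos at 5, 12 and 24 hpf (x axis), with 1 line per probe. The dnmt3bb.1 line runs from -0.93 to 2.16 and both dnmt3ab lines climb at each step, while the dnmt1 lines run in different directions.

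Each methyltransferase was also set beside the genes with the most similar pattern, by the Euclidean distance between centred log2 levels over 6 values, 3 stages in both channels, among 7840 genes measured throughout. The nearest were creg1 to dnmt1 (distance 0.16), niban2a to dnmt3aa (0.21), uraha to dnmt3ab (0.26), zbtb7b to dnmt3ba (0.12), tardbpb to dnmt3bb.2 (0.13) and rangap1b to dnmt3bb.3 (0.20). For dnmt3bb.1 the nearest were the mitochondrial genes ND2 and ND1, at 1.11 and 1.12, and exoc1, at 1.19. The 6 values include those at 5 hpf for which dnmt3bb.1 was known, so its larger distance restates its 5 hpf ratio and supports nothing further. The next nearest were ccdc82 and tcirg1b to dnmt1, rps8b and zgc:174224 to dnmt3aa, dao.2 and hmx4 to dnmt3ab, tmem18 and rchy1 to dnmt3ba, myef2 and nifk to dnmt3bb.2, and nol6 and nom1 to dnmt3bb.3. Red levels make up 3 of the 6 values, and that channel was dim at 12 and 24 hpf. For dnmt3aa it lay 3.6 and 7.5 units above background there. All genes shifted in red by a median of 1.02 between 5 and 12 hpf. How far the matches rest on that shift was not tested, and nothing is read from them.

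Genes that work with the methyltransferases were taken as a list of 57, of which 48 were on the array under their current names; tet1, tet2, tet3 and uhrf2 were among those not matched. In the scanner signals 0 of them were at least 2-fold higher or lower at any stage, where between 0.14% and 0.787% of all genes were, by stage and direction. At 5 hpf 20 of 45 measured were above 0 and 25 below, with a median of -0.01. At 12 hpf it was 10 above and 33 below of 43, with a median of -0.18, and at 24 hpf 15 and 25 of 40, with a median of -0.07. Set against the median of all genes, -0.03, the list's median at 12 hpf was lower, as it was in the authors' deposited table (-0.20 against -0.09) and with median centring (-0.03 against 0.16). The count below 0 was 30 of 43 in the authors' deposited table and 22 of 43 with median centring, which raised the median of all genes but not every gene. Without the share of all genes below 0, nothing is read from these counts by sign.

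Among the partners of dnmt1, uhrf1 stood at -0.01 at 5 hpf, 0.01 at 12 hpf and -0.36 at 24 hpf, and at 24 hpf its 2 measured probes lay at -0.91 and 0.20. The authors' deposited table had uhrf1 at -0.02, 0.05 and 0.005 at these stages. The replication clamp gene pcna had -0.54 at 12 hpf, with probes at -1.01 and -0.08, and -0.31 in the authors' deposited table. Histone methyltransferases that work alongside DNA methylation included suv39h1a at 0.45 (1 probe) and setdb1a at 0.40, both at 5 hpf, and ezh2 at -0.83 (1 probe) at 24 hpf. In the authors' deposited table ezh2 had -0.02, the largest gap among the genes of the list named here at that stage. Of the histone enzymes, 10 of 11 were below 0 at 12 hpf, with a median of -0.23, against -0.03 in all genes. With median centring the count was 8 of 11 and the median -0.32, against 0.16 in all genes. The authors' deposited ratio also gave 8 of 11, with a median of -0.21 against -0.09. By role, the other medians at 12 hpf ran from -0.28 (methyl donor cycle) to -0.06 (oxidation and repair), so the histone enzymes were not the lowest. The share of all genes below 0 is not given here, so nothing is read from these counts.

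The methyl donor cycle supplies S-adenosylmethionine, the methyl source of all these enzymes. Its gene mat1a, which makes that donor, had a log2 ratio of 0.63 at 5 hpf from 2 dim probes at -0.02 and 1.29, and 1.46 in the authors' deposited table. The gene ahcy, which clears the product that inhibits methyltransferases, had -0.51 at 5 hpf, with its 3 probes between -0.76 and -0.36 and -0.54 in the authors' deposited table. At 12 hpf mat2aa, also a donor synthase gene, had -0.47 from probes at -1.06 and 0.12, and at 24 hpf it had -0.59. The authors' deposited table had mat2aa at -0.20 and -0.54. The gene bhmt, which regenerates methionine, had -0.44 at 12 hpf and 0.52 at 24 hpf, and in the authors' deposited table -0.89 and 1.23. These rest on 1 probe, with a red signal of 146.2 over a background of 129.7 at 12 hpf. The methyl-binding domain family was represented by mbd3b at -0.46 (1 probe) at 12 hpf and mbd3a at -0.45 at 24 hpf, the latter from probes between -1.27 and 0.02. The related gene trdmt1, whose enzyme methylates transfer RNA, had -0.10, -0.18 and -0.07, and -0.28, -0.07 and 0.07 in the authors' deposited table.

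**Figure D5:**
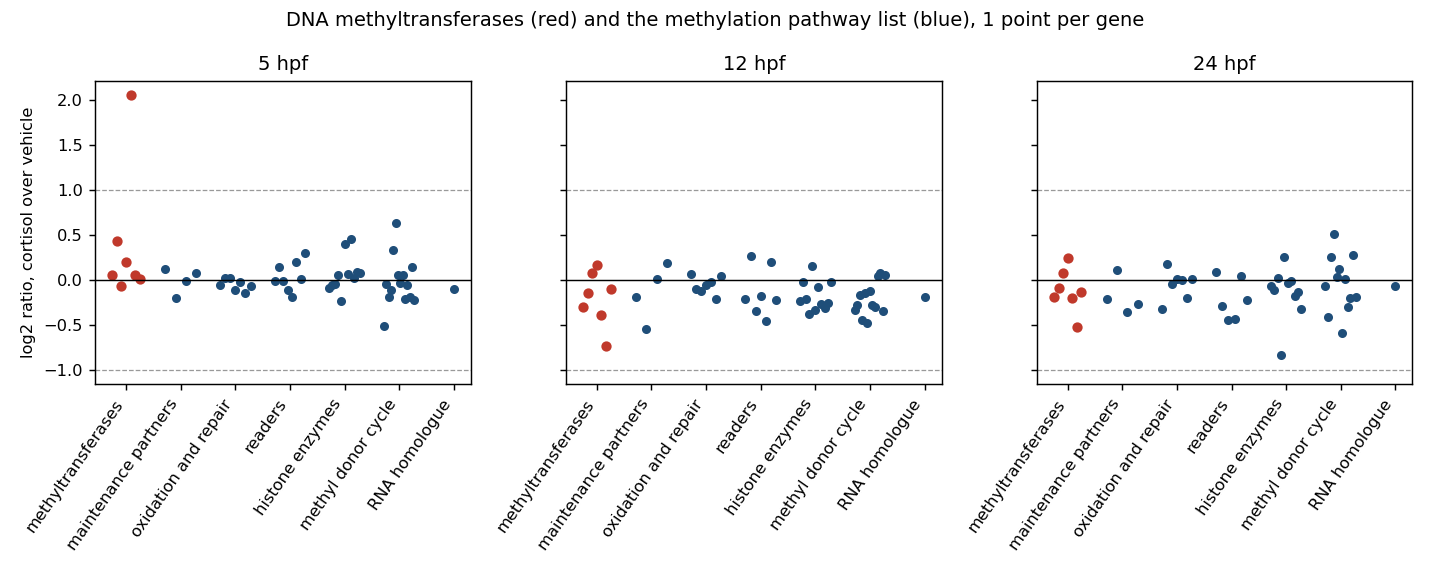
Log2 ratio of cortisol over vehicle (y axis) of the methyltransferases (red) and of the pathway list by role (blue), 1 point per gene and 1 panel per stage, with dashed lines at 2-fold. At 5 hpf dnmt3bb.1 at 2.06 is the only point past 2-fold. At 12 hpf the median of the blue points was -0.18, where the median of all genes was -0.03.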

How the data were processed

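RNA of cortisol-treated (red) and vehicle (green) embryos was compared on 1 deposited set of array values per stage. The authors deposited scanner intensity values and local background per spot and channel, and, per the file headers, a log10 ratio (red divided by green, normalized) with processed signals; Agilent Feature Extraction is named in the submitters' processing notes, its version not given in the sources used here. The deposited log10 ratio was rescaled to log2 as an alternative. Green values carry decimals of means over 4 arrays in 99.9% of spots at 5 hpf and over 3 arrays in 99.3% at 12 hpf, and those of 1 array in 99.5% at 24 hpf, so the earlier values were read as means over arrays. The deposited ratio, where not 0, equals the ratio of processed signals within 0.02 (log2) in 43.2%, 46.4% and 100% of spots.

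Background was corrected with limma's normexp (limma 3.58.1, R 4.3.3, offset 50) and ratios normalized by loess within each set, control spots at weight 0. Spots with local background over 2 times the median, 12, 9 and 0, were left out. A probe was measured if brighter than 153 negative controls on average plus 2 SD, and measured probes were averaged per gene. Levels across stages are log2 signals minus the 75th percentile over probes measured at all stages. No fold or bound is given for probes not measured in red. Genes were named through RefSeq GRCz12tu names by accession (25258 probes), symbol (2766) or synonym (1675), and 13904 kept the file's name. The ratio procedure was tested on simulated data, made by planting known ratios in probes of these arrays measured in both channels. That test required the right direction only and did not cover levels across stages. Members and lists were chosen with earlier results of these data known. The text names every member gene but not each of its probes, the 4 list genes with the largest ratio per stage, uhrf1 and trdmt1, and the 3 nearest patterns. Alternatives were other background corrections, centrings, filters, probe choices and scalings. The number of arrays limits the precision. Python 3.11.15, pandas 2.3.3, numpy 2.4.6 and matplotlib 3.10.9 were used.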

Additional observations from a re-analysis of the deposited data

Results flagged for a closer look

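The log2 ratio of dnmt3bb.1 was 2.06 at 5 hpf and -0.39 at 12 hpf, opposite in sign and apart by 2.44, and this difference was not tested. It rests on 1 probe and on 1 set of values per stage.

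Among the probes of dnmt1, opposite signs beyond the spread between probes were seen in 3 of 7, also without a test. The share of all probes that did so is not given here, so nothing is read from this count. The ratio of A_15_P461830 was 0.39 at 5 hpf and -0.40 at 12 hpf, a difference of 0.79. For A_15_P632541 the 5 hpf ratio of 0.51 stood 1.35 above that at 12 hpf and 0.98 above that at 24 hpf, whereas the authors' deposited table had 0.46 at both 5 and 24 hpf. For A_15_P666021 the 5 hpf ratio of 0.40 stood 1.19 above that at 12 hpf and 1.06 above that at 24 hpf. The authors' deposited table had A_15_P666021 at 0.39, -0.35 and -0.10 at 5, 12 and 24 hpf, which lie closer together. All 3 are bright probes, and the red channel was dim at 12 and 24 hpf.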

How the results depend on the processing

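No paired analysis was possible because each stage has 1 set of values. The ratio of dnmt3bb.1 at 5 hpf stayed between 1.78 and 2.31 over 9 alternatives. Those that only filter or choose probes left it at 2.06, and with a single bright probe they could not change it. At 12 hpf its ratio was below 0 under every alternative, from -1.24 to -0.27. That of dnmt3bb.2 lay between -1.42 and -0.13 at 12 hpf. Median centring in place of loess, taken over probes measured in both channels after a first centring over all probes had been seen to fail, raised the members' median at 5 hpf to 0.32 and gave 1 member 2-fold higher and 2 lower at 12 hpf and 1 lower at 24 hpf. It also shifted the median of all genes to 0.16 at 12 hpf and 0.10 at 24 hpf, against -0.03 and -0.02 with loess. Plain background subtraction gave 1 lower at 12 hpf. For the pathway list, 2-fold higher and lower genes in the deposited ratio numbered 1 and 1 (5 hpf), 1 and 2 (12 hpf) and 1 and 1 (24 hpf). In the processed signals they were 1 higher (5 hpf), 1 and 2 (12 hpf), and 1 and 1 (24 hpf). Under subtraction they were 1 and 1 (5 hpf), 4 lower (12 hpf), and 1 and 2 (24 hpf). Under median centring they were 5 and 3 (12 hpf) and 2 and 1 (24 hpf). With the brightest green probe alone they were 1 higher at 5 hpf, 3 lower at 12 hpf and 2 lower at 24 hpf. In the deposited ratio and under median centring, 45, 43 and 40 list genes were measured at 5, 12 and 24 hpf. Of all genes, between 1.97% and 3.64% were called in the deposited ratio, by stage and direction. For the other alternatives that share is not given here, so nothing is read from these counts of members and list genes.

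In vehicle embryos, 2 members were 2-fold lower at 24 than at 12 hpf under subtraction and in the processed signals. Of all genes, 7.39% and 8.34% were lower there. In cortisol embryos, 2 members were 2-fold higher at 12 than at 5 hpf under quantile normalization, subtraction and processed signals. Under a percentile over all probes it was 1. Of all genes, 15.9%, 33.4%, 32.3% and 29.4% were higher under these 4 scalings. Under subtraction 1 member was lower, against 21.1% of all genes. Between 12 and 24 hpf 2 were higher and 1 lower under subtraction and 1 and 2 in the processed signals, where 15.5% and 8.06%, and 14.2% and 8.14%, of all genes were. Between 5 and 24 hpf 2 were higher under quantile normalization and 3 under subtraction and in the processed signals (dnmt3ab, dnmt3ba and dnmt3bb.1). Under the percentile over all probes it was 1. Of all genes, 18.2%, 36.7%, 35.1% and 29.6% were higher under these 4 scalings. Lower were 1 under subtraction, 1 in the processed signals and 2 under that percentile, against 22.6%, 23.9% and 31.2% of all genes. The cortisol level of dnmt3aa turned to -0.60, -1.49 and -0.82 between 5 and 12 hpf, and to -0.37, -0.17 and -0.57 between 5 and 24 hpf, under quantile normalization, subtraction and processed signals. That of dnmt3bb.3 between 5 and 24 hpf turned to -0.49, -0.58, -0.60 and, with the percentile over all probes, -0.091. The cause was not tested. Of the remaining values, 279 moved by less than the spread between probes and 67 by more. Part of the 279 could not move, as with single-probe genes under settings that only filter or choose probes. Some of them changed sign within that spread. Ratios near background in red, above all those of dnmt3aa and the dim dnmt1 probes, are limited by signal.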
